A study of Tupaia belangeri with 15 samples.

Results

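SOX proteins are transcription factors that bind DNA through a high mobility group box, and 10 SOX genes (SOX1, SOX2, SOX4, SOX5, SOX6, SOX8, SOX9, SOX10, SOX11 and SOX12) were followed here through the retina of the tree shrew (Tupaia belangeri, TS). They were taken by gene symbol, with earlier results of these data known, and are 10 of the 83605 features that the count files list. Single-nucleus RNA sequencing (snRNA-seq) on the 10x Genomics platform had been run on 15 retinas, 5 from each of 3 stages of life (infancy, mature and senile). The sources name no strain, treatment or engineered allele for any group. Each stage held female and male animals, and the sample labels give neither the sex nor the exact age of a retina. The infant animals were 1.4 to 2.1 months old, the mature animals 24.96 to 36 months and the senile animals 85.8 to 86.56 months. The senile animals came from another institute than the infant and mature ones, so that stage and source cannot be told apart in any comparison with the senile group. The comparisons below ask in which cell classes each SOX gene was transcribed, which subclasses of bipolar cells (BCs), amacrine cells (ACs) and cones differed in SOX transcripts, and whether SOX levels differed between the stages.

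The family falls into groups of related sequence. SOX1 and SOX2 form group B1, which keeps neural progenitors undifferentiated, and SOX2 marks Müller glia in the grown retina. SOX4, SOX11 and SOX12 form group C and are active in newly born neurons, SOX5 and SOX6 form group D and lack an activation domain of their own, and SOX8, SOX9 and SOX10 form group E, with SOX9 acting in glia and SOX10 in oligodendrocytes and neural crest. SOX5 and SOX6 often bind together with group E proteins. In the retina of other mammals SOX2 is known from Müller glia, astrocytes and the cholinergic (starburst) ACs, SOX9 from Müller glia and astrocytes, and SOX11 from young retinal ganglion cells (RGCs).

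The files held 120437 nucleus barcodes with 13429873 to 58734300 unique molecular identifiers (UMIs) per retina. After filters on genes and mitochondrial UMIs and removal of 7940 predicted doublets, 111825 nuclei remained, and 68064 of them (60.9%, 45 to 71.6% per retina) were given to a class by marker genes among which there was no SOX gene. Of 19 further markers with at least 100 UMIs that were not used for this, 15 were highest in their own class; PRKCA was highest in rods, NEFH in horizontal cells (HCs), CRYM in astrocytes and IGFBP5 in Müller cells. The glutamate decarboxylase gene GAD2 of inhibitory ACs was listed at 0 in every retina. Levels are given as CPM, the UMI count of a gene scaled to a common total of UMIs for each class and retina, and a retina was left out of a class for which it had fewer than 10 nuclei. Astrocytes therefore lacked Mature 4 and rods lacked Senile 1, each with 1 nucleus. The feature LINC-FRMD8-1 took up 12.1 to 21.2% of the UMIs of a retina, and leaving it out of the totals changed no call between classes. Of the retinas, 7 had been run with an earlier and 8 with a later version of the alignment software, and both versions occur in every stage. Any 2 libraries shared at most 30 barcodes. A CPM value of one gene is set beside the same gene in another class and not beside another gene, since the lengths of the transcripts were not known.

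Of the 10 genes, 6 reached a mean of 1 CPM in at least 1 class, namely SOX2, SOX5, SOX6, SOX8, SOX9 and SOX11. SOX5 gave 172472 UMIs over all nuclei and SOX6 gave 70228, whereas SOX11 gave 4739, SOX9 2648, SOX2 1816 and SOX8 878. SOX1 gave 18 UMIs and SOX10 5, too few for a comparison between classes. SOX4 and SOX12 are listed at 0 in all 15 retinas. As GAD2 is also listed at 0, these zeros were not read as a lack of transcripts. The files further list 11 long noncoding features named after SOX4, with 3059 UMIs between them, highest in RGCs at 12.4 CPM and ACs at 11.6 CPM over all retinas pooled. SOX10 marks oligodendrocytes, for which no class was formed here.

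SOX2, the group B1 factor of neural stem cells and glia, was highest in astrocytes, next in Müller cells and next in ACs, each class taken whole. In astrocytes it was at 50.5, 67.1, 79.7, 55.7 and 56.8 CPM in the infant retinas, 56.9, 51.4, 51.9 and 80.8 CPM in the mature retinas and 22.9, 20.8, 95.7, 72 and 68.1 CPM in the senile retinas. The senile retinas spanned the widest range, with Senile 1 and Senile 2 below every infant and mature retina and Senile 3 above all. Senile 2 had 38 and Senile 3 had 35 astrocyte nuclei, so that the low CPM of the former and the high CPM of the latter rest on few UMIs. In Müller cells it was at 20.4, 19.6, 21.8, 15.1 and 20.3 CPM in the infant retinas, 12.9, 11.7, 15.4, 17 and 19.9 CPM in the mature retinas and 15.5, 21.8, 18.9, 15.9 and 17.2 CPM in the senile retinas, and only these 2 low senile astrocyte values came near the highest Müller values. The means were 59.3 ± 20.6 CPM (SD, n = 14) and 17.6 ± 3.14 CPM (SD, n = 15). Within a retina the difference was 1.99 ± 0.65 log2 units and was positive in 14 of 14 retinas (adjusted p = 0.0016, 2-sided exact sign-flip permutation test over retinas after the deeper class had been thinned to the UMI total of the shallower one, Benjamini-Hochberg adjustment over all features tested in the class pair). In the levels printed, which are not thinned, astrocytes were below Müller cells in Senile 2 (20.8 against 21.8 CPM). Every further adjusted p between classes or subclasses comes from this exact permutation test, and its differences and counts of retinas are those after thinning. Of all such tests over the 36 pairs of classes, 43.4% passed an adjusted p of 0.05, so that a difference between classes was common among features. The astrocyte difference was 1.72 and 2.04 log2 units within the earlier and the later software version. Müller cells exceeded ACs by 1.24 ± 0.43 log2 units (adjusted p = 0.00022, 15 of 15 retinas), and ACs exceeded BCs by 1.21 ± 0.51 log2 units (adjusted p = 0.00020).

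The other 6 classes had SOX2 means from 0.577 to 2.90 CPM, and no 2 neighbours in that order that could be tested differed beyond their spread. For shares of nuclei, each nucleus with at least 1000 UMIs was thinned to 1000 UMIs. Nuclei with fewer were left out here and below, among them 52 astrocytes, 543 Müller cells, 68 RGCs and 246 cones. Of thinned nuclei, 7.12% of astrocytes and 1.67% of Müller cells held a SOX2 UMI, against 0.0904% of RGCs and 0.283% of cones. RGCs and cones served as the background of neurons without known SOX2. Median depths of all nuclei of these classes before thinning were 1768, 2084, 5386 and 3188 UMIs, in the order named.

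The AC level of SOX2 was carried by the starburst cells, the cholinergic ACs of the direction-selective circuit, gated by CHAT, SLC5A7, SLC18A3 and MEGF10. Starburst ACs held SOX2 at 25.8, 47.6, 29.5, 17.5 and 26.1 CPM in the infant retinas, 25.2, 44.5, 22.8, 39 and 41.5 CPM in the mature retinas and 31.7, 45.5, 39.4, 14.1 and 28.6 CPM in the senile retinas. All other ACs together held 0 to 4.31 CPM, so that the ranges did not overlap in any stage. The means were 31.9 ± 10.4 CPM (SD, n = 15) and 1.34 ± 1.18 CPM (SD, n = 15), a difference of 4.06 ± 0.79 log2 units that was positive in 15 of 15 retinas (adjusted p = 0.00045; 37.2% of all features passed in this comparison, and 4 of the 5 SOX genes tested). It was 4.21 and 3.78 log2 units within the earlier and the later software version. After thinning, 2.93% of starburst and 0.106% of other AC nuclei held a SOX2 UMI. The starburst mean lay above the mean of 17.6 CPM in Müller cells, though ACs as a whole lay below. That pair was not tested. Summed markers of astrocytes, the class with the highest SOX2, were at 51 CPM in starburst and 338 CPM in other ACs, and those of Müller cells at 647 and 437 CPM, and their part in the difference was not tested. In BCs, SOX2 was low throughout, at 1.42 CPM in OFF BCs and 3.67 CPM in ON BCs, a difference of -0.85 ± 1.09 log2 units (adjusted p = 0.019; 32.9% of all features passed). This last call was lost without Infancy 1 and without Mature 1 and under a stricter gate. The difference was further from 0 within the earlier than within the later software version.

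Noncoding features named after SOX2 were likewise highest in astrocytes. The 8 LINC-SOX2 features summed to 38.3 CPM in astrocytes and 17.1 CPM in starburst ACs over all retinas pooled, but to 2.73 CPM in Müller cells and 0.682 CPM in the other ACs. Of their 990 UMIs, 721 belonged to LINC-SOX2-2.

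**Figure D1:**
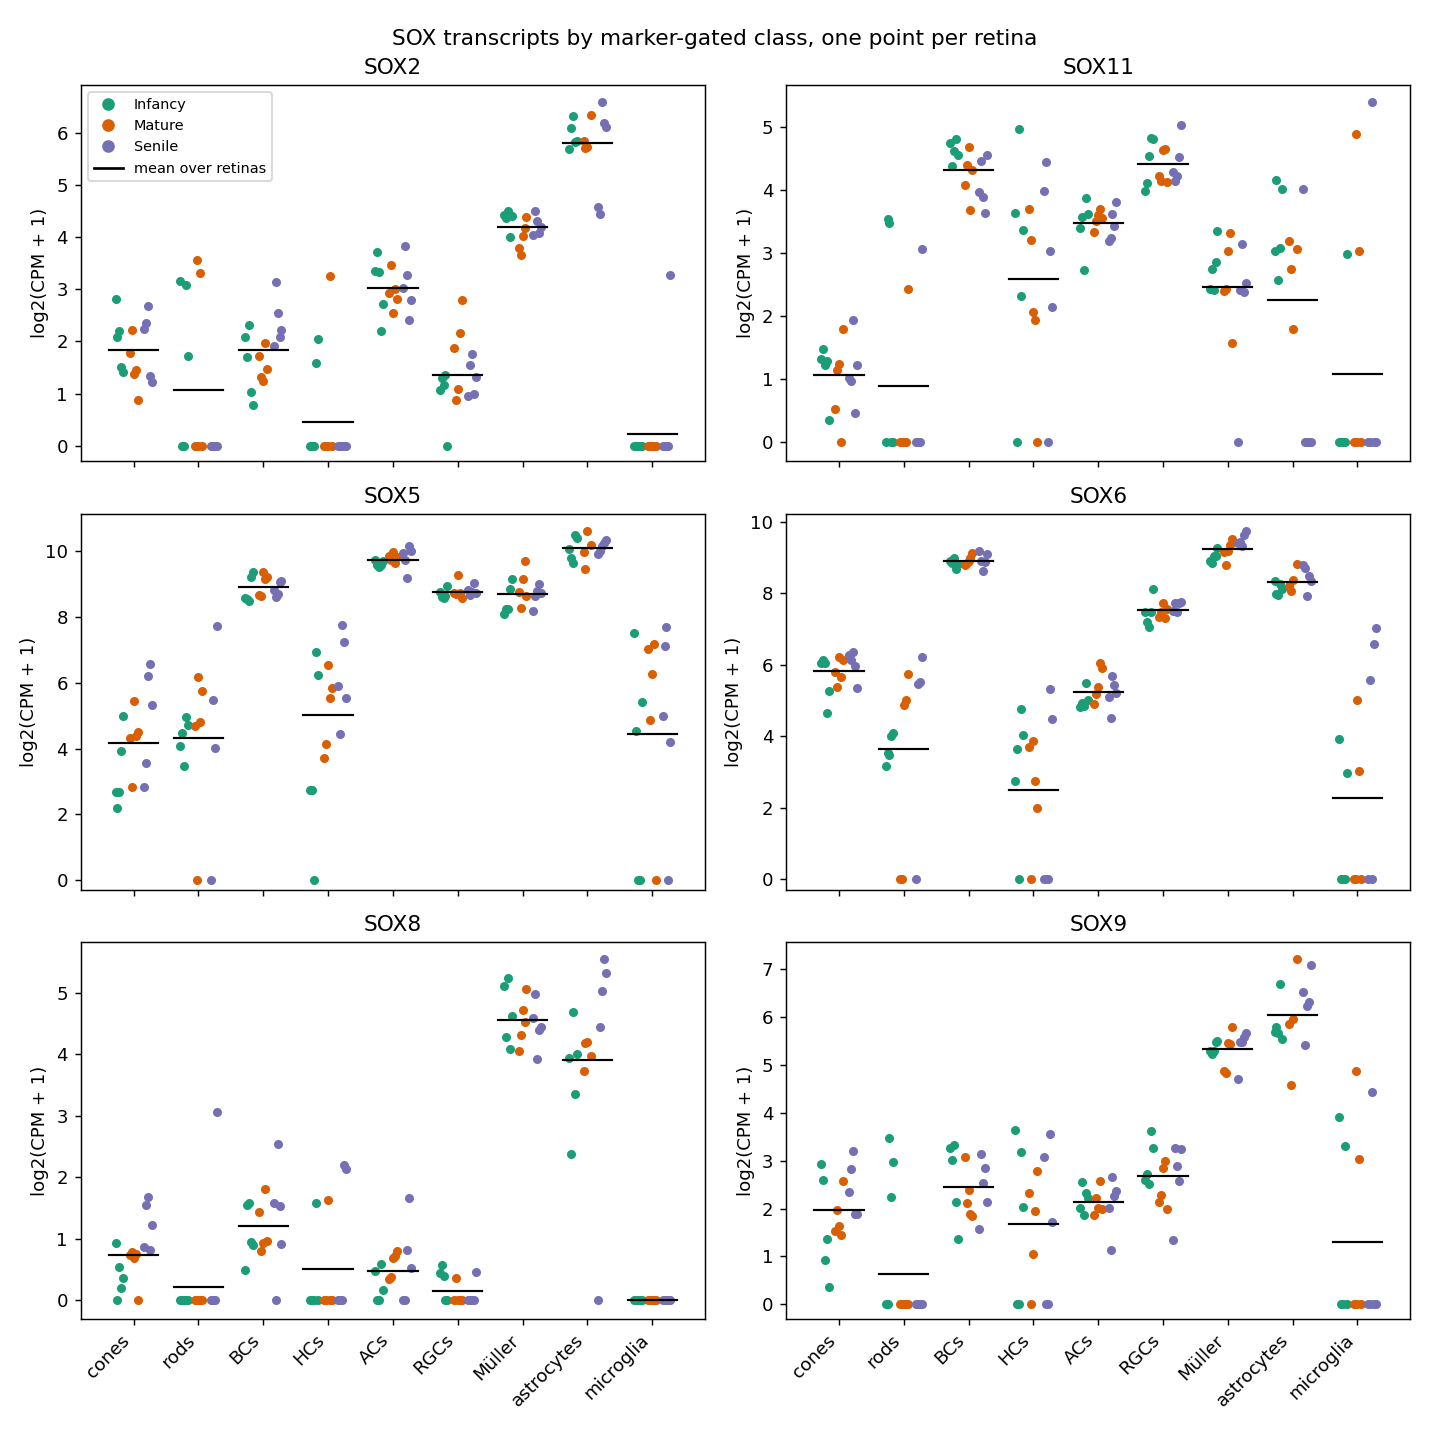
Level of 6 SOX genes (y axis, log2 of CPM plus 1) in 9 marker-gated classes (x axis), 1 point per retina coloured by stage, with a bar at the mean over retinas. SOX2 and SOX9 stood highest in astrocytes and Müller cells, SOX8 in Müller cells and astrocytes, and SOX11 in RGCs and BCs.

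SOX11, the group C factor of immature neurons, was highest in RGCs and BCs, and was still detected in the oldest retinas. RGCs held 14.8, 16.2, 22.1, 27.2 and 26.9 CPM in the infant retinas, 17.6, 16.6, 23.8, 24.2 and 16.4 CPM in the mature retinas and 18.6, 16.7, 17.6, 21.9 and 31.8 CPM in the senile retinas. BCs held 25.7, 19.8, 23.6, 26.9 and 22.6 CPM in the infant retinas, 16, 20.1, 24.5, 11.8 and 18.9 CPM in the mature retinas and 14.7, 20.9, 13.8, 11.4 and 22.5 CPM in the senile retinas. The 2 classes overlapped in every stage, and their means of 20.8 ± 5.05 CPM (SD, n = 15) and 19.6 ± 4.99 CPM (SD, n = 15) did not differ beyond the spread (0.11 ± 0.49 log2 units, higher in RGCs in 8 of 15 retinas, adjusted p = 0.48). ACs followed at 10.3 ± 2.01 CPM (SD, n = 15), below BCs by 0.86 ± 0.48 log2 units (adjusted p = 0.00034, BCs higher in 14 of 15 retinas). HCs, astrocytes, microglia, Müller cells, rods and cones had means of 8.50 down to 1.23 CPM, with no tested neighbours in this order past the threshold. Classes further apart did differ, and cones were below HCs by 2.01 ± 1.96 log2 units (adjusted p = 0.0075), below astrocytes by 1.60 ± 1.59 log2 units (adjusted p = 0.010) and below Müller cells by 1.54 ± 1.05 log2 units (adjusted p = 0.00070). Of thinned nuclei, 2.04% of BCs and 1.65% of RGCs held a SOX11 UMI, against 0.0808% of cones.

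Within ACs the order of SOX11 was the opposite of that of SOX2. Starburst ACs held 0 to 6.06 CPM with a mean of 2.25 ± 1.76 CPM (SD, n = 15), and other ACs held 13.1, 13.3, 6.60, 16.4 and 13.1 CPM in the infant retinas, 11.6, 12.8, 12.8, 13.4 and 12 CPM in the mature retinas and 9.84, 10.2, 12.1, 12.6 and 16.2 CPM in the senile retinas. Infancy 3 was the lowest of the other ACs, and still lay above the highest starburst value. SOX11 was lower in starburst ACs in all 15 retinas, with a difference of -2.21 ± 1.15 log2 units (adjusted p = 0.00045). OFF and ON BCs did not differ beyond their spread (-0.12 ± 0.66 log2 units, adjusted p = 0.65). Within the later software version alone this difference passed, with OFF BCs the lower. The 34 LINC-SOX11 features summed to 17.2 CPM in RGCs and 12 CPM in other ACs, but to 2.66 CPM in BCs and 1.75 CPM in starburst ACs.

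SOX5, a group D factor that governs the timing of neuronal and glial differentiation, split the classes into a high and a low group. Astrocytes held it at 1083, 897, 807, 1452 and 1347 CPM in the infant retinas, 1009, 708, 1573 and 1183 CPM in the mature retinas and 967, 1038, 1148, 1217 and 1313 CPM in the senile retinas. ACs held it at 851, 771, 731, 775 and 843 CPM in the infant retinas, 921, 855, 1003, 803 and 918 CPM in the mature retinas and 989.9, 852, 584, 1141 and 1038 CPM in the senile retinas. The ranges of these 2 classes overlapped in every stage. The means were 1124 ± 245 CPM (SD, n = 14) and 872 ± 137 CPM (SD, n = 15), and astrocytes were higher in 12 of 14 retinas by 0.35 ± 0.34 log2 units (adjusted p = 0.0077). The difference was 0.10 and 0.56 log2 units within the earlier and the later software version, and it was 0.22 under a stricter gate, where it no longer passed (adjusted p = 0.14). ACs exceeded BCs by 0.84 ± 0.31 log2 units in 15 of 15 retinas (adjusted p = 0.00020).

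BCs at 490.1 ± 109.7 CPM, RGCs at 440.3 ± 63.5 CPM and Müller cells at 435 ± 148 CPM (SD, n = 15 each) did not differ from one neighbour to the next beyond the spread (BCs minus RGCs 0.13 ± 0.27 log2 units, adjusted p = 0.10; RGCs minus Müller cells 0.07 ± 0.39 log2 units, adjusted p = 0.56), though BCs exceeded Müller cells by 0.20 ± 0.31 log2 units in 11 of 15 retinas (adjusted p = 0.047). The next step down was large, with Müller cells above microglia by 4.22 ± 2.95 log2 units in all 15 retinas (adjusted p = 0.00063). Microglia, HCs, rods and cones had means of 68 down to 26 CPM with no neighbours past the threshold, though HCs exceeded cones by 1.25 ± 1.43 log2 units (adjusted p = 0.011). In thinned nuclei a SOX5 UMI was found in 64.5% of astrocytes, 41.7% of ACs, 31.6% of Müller cells, 28.1% of RGCs and 25.7% of BCs, but in 1.65% of cones and 2.44% of rods. Outside the 9 classes, 77 nuclei gated by pericyte markers held 285 SOX5 UMIs, or 1600.1 CPM, with 1283, 1956 and 2143 CPM in the 3 retinas that had at least 10 of them. These nuclei also held CLDN5, a marker of endothelium, at 679 CPM.

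SOX6, the other group D factor, had a different order and 6 of its 8 steps between neighbouring classes passed the test. Müller cells held it at 475, 465, 524, 529 and 616 CPM in the infant retinas, 565, 440.4, 582, 650.5 and 736 CPM in the mature retinas and 673, 698, 641, 801 and 858 CPM in the senile retinas, the senile values all above the infant values. BCs held it at 481, 463, 511, 411 and 450.3 CPM in the infant retinas, 447, 457, 474, 509.5 and 563 CPM in the mature retinas and 577, 478, 393, 473 and 547 CPM in the senile retinas. The means were 617 ± 123 CPM (SD, n = 15) and 482 ± 51.9 CPM (SD, n = 15). After thinning, Müller cells were higher in 14 of 15 retinas by 0.34 ± 0.26 log2 units (adjusted p = 0.0014). That difference was 0.15 and 0.49 log2 units within the earlier and the later software version. In the levels printed, which are not thinned, BCs were the higher in Infancy 1 and Mature 2. BCs are taken whole here, and OFF BCs alone were at 1046 CPM, above Müller cells, a pair that was not tested. BCs exceeded astrocytes (325 ± 70.3 CPM) by 0.57, astrocytes exceeded RGCs (187 ± 35 CPM) by 0.82 and RGCs exceeded cones (58.6 ± 16.7 CPM) by 1.70 log2 units (adjusted p = 0.00090, 0.00092 and 0.00015). Cones were above ACs (38.2 ± 12.4 CPM) by 0.60 ± 0.66 log2 units (adjusted p = 0.0070), and ACs above rods (23.9 ± 22.7 CPM) by 1.28 ± 1.87 log2 units (adjusted p = 0.039). Rods, microglia and HCs did not differ in order beyond their spread.

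SOX6 divided the BCs. OFF BCs, the BCs with ionotropic glutamate receptors gated by GRIK1, held 1030.2, 943, 969, 881 and 943 CPM in the infant retinas, 1008, 1052, 1018, 1160.4 and 1225 CPM in the mature retinas and 1128, 1155, 1117, 881 and 1180.1 CPM in the senile retinas. ON BCs, gated by ISL1, GRM6 and TRPM1, held 169.8, 188, 187, 186 and 214 CPM in the infant retinas, 177, 121, 193, 254 and 224 CPM in the mature retinas and 227, 78.9, 165, 157 and 227 CPM in the senile retinas. No ON value came near an OFF value. The means were 1046 ± 111 CPM (SD, n = 15) and 185 ± 44.4 CPM (SD, n = 15), and OFF BCs were higher in all 15 retinas by 2.54 ± 0.46 log2 units (adjusted p = 0.00055). It was 2.71 and 2.37 log2 units within the earlier and the later software version. Among the 6 SOX genes tested in this pair, 1 was higher in OFF BCs and 2, SOX2 and SOX8, were higher in ON BCs, against 32.9% of all features in either direction. The SOX2 call was lost without Infancy 1 or Mature 1, and the SOX8 call without Mature 2. SOX5 differed by -0.03 ± 0.39 log2 units with 495 CPM in OFF and 491 CPM in ON BCs (adjusted p = 0.85). Of thinned nuclei, 31.4% of OFF and 22.4% of ON BCs held a SOX5 UMI, a higher share in OFF BCs. The difference in share had an unadjusted p under 0.05 by the sign-flip test, so that level and share did not give the same answer. Müller markers summed to 1155 CPM in OFF and 374 CPM in ON BCs, of which the transporter gene SLC1A3 made up 961 and 152 CPM, against 7597 CPM in Müller cells. Their part in the SOX6 difference was not tested. Of thinned nuclei, 61.7% of OFF and 9.42% of ON BCs held a SOX6 UMI.

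The ON BC level was carried by few nuclei. In all, 690 ON BCs (4.73%), found in all 15 retinas, had 5 or more SOX6 UMIs and held 70.7% of the SOX6 UMIs of the subclass, whereas 86.4% had none, at median depths of 3320 and 2406 UMIs. In OFF BCs, 19.4% had 5 or more and 18.7% had none. The ON BCs with many SOX6 UMIs held bipolar markers at 5968 CPM and those without at 6290.0 CPM. Since these nuclei were chosen by SOX6, the following is a description without a test. Among 3322 genes with at least 100 UMIs in them, the receptor phosphatase gene PTPRK led at 857 CPM against 53.9 CPM in nuclei without SOX6 (higher in 14 of 15 retinas), followed by TNNT2, GPHB5, CHRM3, a muscarinic acetylcholine receptor gene, at 117 against 13.2 CPM, and CDH13. Of the same 3322 genes, those furthest below were UNC13C, the RNA-binding gene ADARB2 (1615 against 7510.4 CPM), PDE1A, GRID1 and SULF1. A gene with fewer than 100 UMIs in the nuclei with many SOX6 UMIs could not enter either list.

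**Figure D2:**
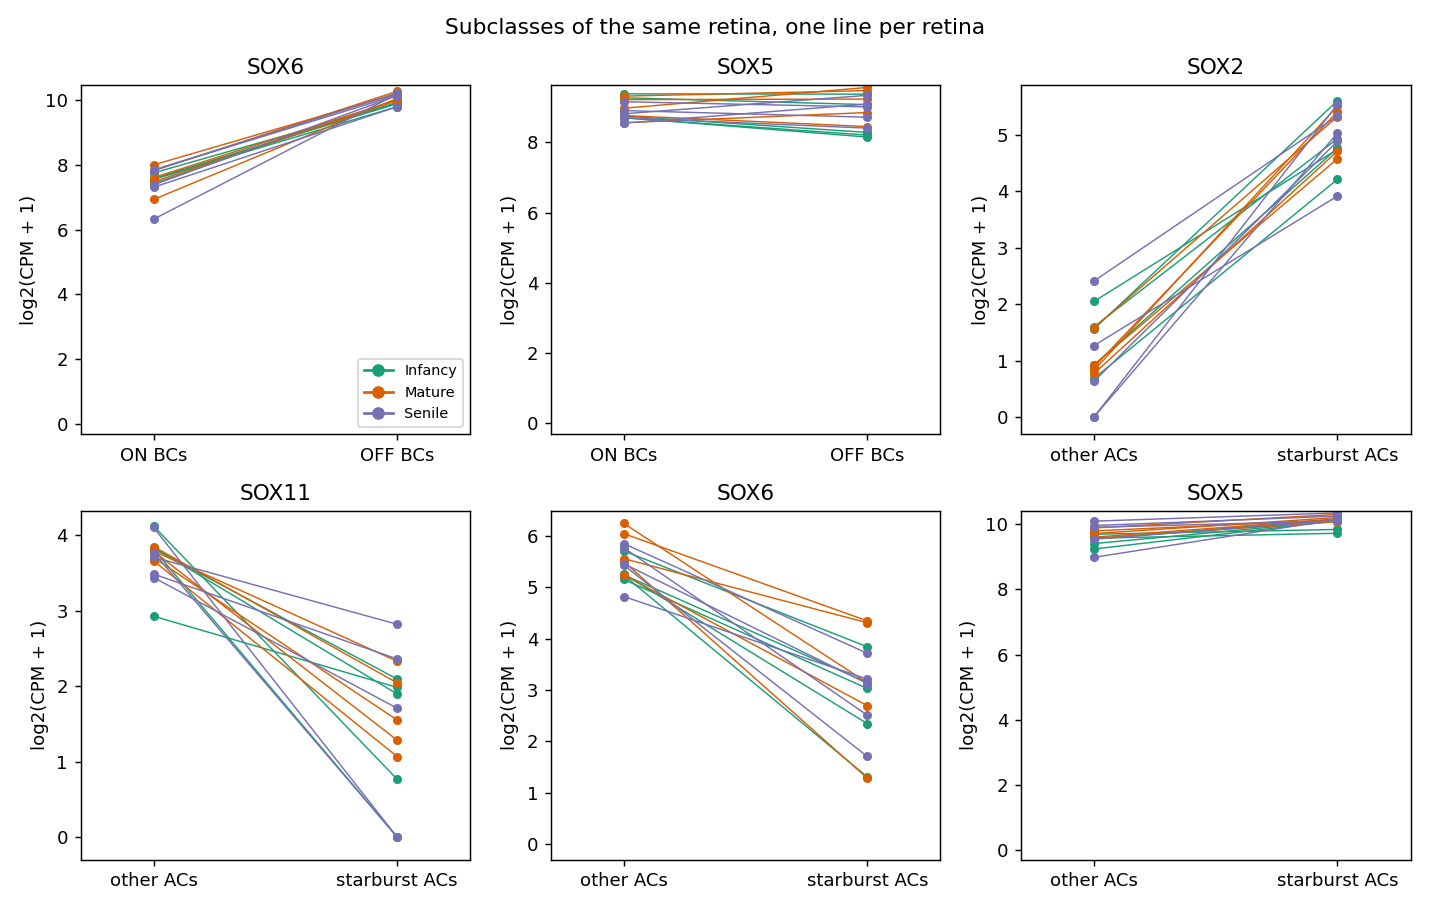
SOX6 and SOX5 in ON and OFF BCs, and SOX2, SOX11, SOX6 and SOX5 in other and starburst ACs (x axis), as log2 of CPM plus 1 (y axis). Each line joins the 2 subclasses of 1 retina, coloured by stage; the lines run the same way in all 15 retinas in every panel but that of SOX5 in BCs.

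SOX5 and SOX6 ran in opposite directions across the ACs. Starburst ACs held SOX5 at 1134, 1098, 1101, 844 and 916 CPM in the infant retinas, 1180.3, 1148, 1263, 1082 and 1122 CPM in the mature retinas and 1098, 1116, 1136, 1303 and 1217 CPM in the senile retinas. Other ACs held it at 747, 677, 604, 760.0 and 827 CPM in the infant retinas, 838, 776, 945, 759 and 888 CPM in the mature retinas and 959, 744, 505, 1093 and 995 CPM in the senile retinas. The ranges of the subclasses overlapped, but within each retina the order was the same. The means were 1117 ± 116 CPM (SD, n = 15) and 808 ± 153 CPM (SD, n = 15), and starburst ACs were higher in 15 of 15 retinas by 0.48 ± 0.28 log2 units (adjusted p = 0.00045). The difference was 0.58 and 0.41 log2 units within the earlier and the later software version. The starburst mean was close to the astrocyte mean of 1124 CPM, and that pair was not tested. SOX6 was the lower one in starburst ACs, at 7.16, 4.08, 1.48, 13.3 and 7.84 CPM in the infant retinas, 5.47, 1.44, 18.8, 7.81 and 19.3 CPM in the mature retinas and 2.26, 8.26, 12.1, 4.69 and 7.72 CPM in the senile retinas. Other ACs held it at 34.5, 37.1, 36.6, 51.1 and 36.7 CPM in the infant retinas, 36.7, 44.1, 45.9, 74.5 and 64.8 CPM in the mature retinas and 42, 27.2, 56.5, 53.3 and 42.8 CPM in the senile retinas, each value above the highest of the starburst ACs. The SOX6 difference was -2.55 ± 0.90 log2 units, negative in all 15 retinas (adjusted p = 0.00045), and was -3.00 and -2.18 log2 units within the earlier and the later software version. Summed bipolar markers were at 488 CPM (357 to 643) in starburst and 455 CPM (226 to 962) in other ACs, against 19902 CPM in BCs, and their part in these differences was not tested.

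As in ON BCs, SOX6 in other ACs was carried by few nuclei. There, 158 of 10404 nuclei (1.52%) had 5 or more SOX6 UMIs, came from all 15 retinas and held 80.2% of the SOX6 UMIs, whereas 94.6% of the nuclei had none. In starburst ACs 3 of 2863 nuclei had 5 or more. The nuclei of other ACs with many SOX6 UMIs were of similar depth to those without (medians 4471 and 4360.5 UMIs), and held amacrine markers at 877 and 964 CPM, bipolar markers at 919 and 471 CPM and Müller markers at 357 and 376 CPM. Their SOX5 level was 404 CPM, against 846 CPM in the nuclei without SOX6. With the choice made on SOX6, other genes are given as a description. Of 1226 genes with at least 100 UMIs in the nuclei with many SOX6 UMIs, the morphogen gene BMP2 led at 168 against 0.259 CPM. It was followed by ADCYAP1, which encodes the neuropeptide PACAP, at 176 against 1.77 CPM. The morphogen gene BMP7 (187 against 7.11 CPM), the kinase gene STK32B (283 against 14.7 CPM) and the collagen gene COL19A1 came next. STK32B was higher in 15 of 15 retinas, ADCYAP1 and BMP7 in 14 and BMP2 in 11. Among the same 1226 genes, the neuregulin receptor gene ERBB4 (203 against 1108 CPM), KCNIP1, TENM1 and the metabotropic glutamate receptor gene GRM7 were furthest below. Each was higher in none of the 15 retinas. Here too a gene with fewer than 100 UMIs in the nuclei with many SOX6 UMIs could not enter.

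**Figure D3:**
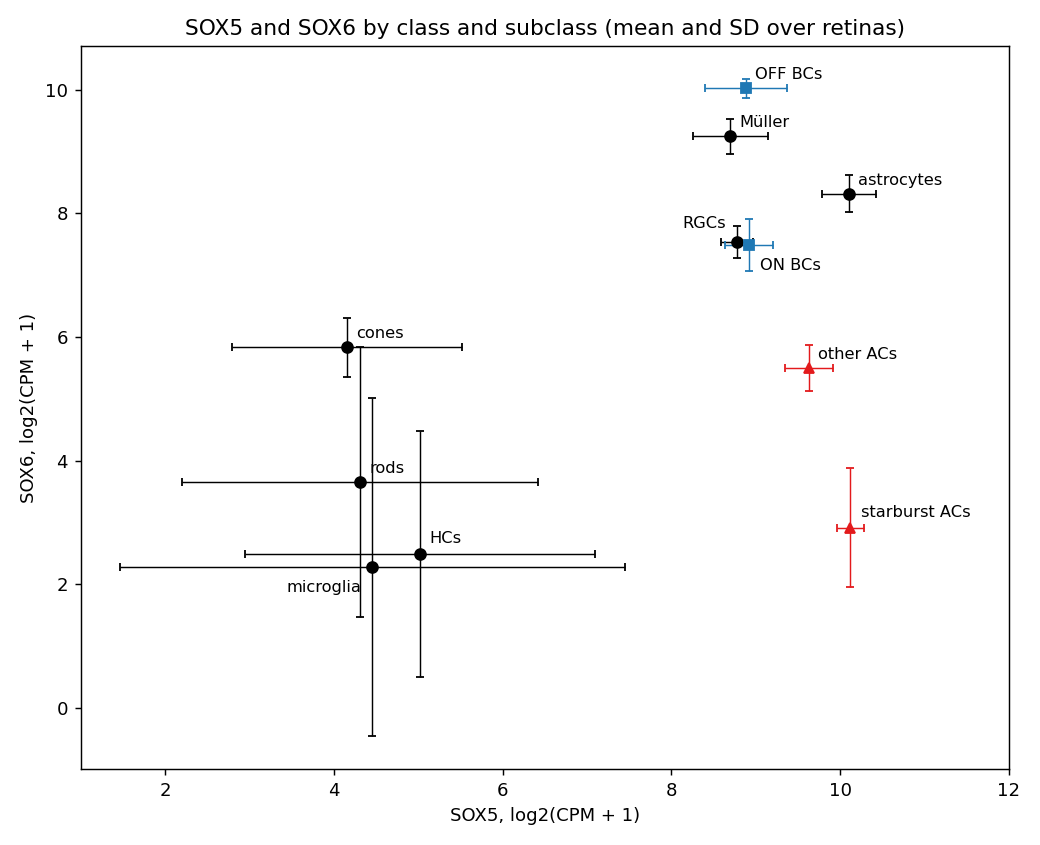
SOX5 (x axis) and SOX6 (y axis), both as log2 of CPM plus 1, in classes (black circles), BC subclasses (blue squares) and AC subclasses (red triangles), with the mean and SD over retinas. OFF BCs and ON BCs lay at a like SOX5 level and apart in SOX6, while starburst ACs lay at the lower right and other ACs above and to their left.

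Antisense features named after the 2 genes were also counted, and as the strand setting of the counting was not given in the sources used here, their reads could not be told apart from those of the genes. The 9 SOX5 antisense features held 25151 UMIs and were highest in astrocytes (245 CPM pooled), then starburst ACs (135 CPM). The 7 SOX6 antisense features held 10547 UMIs and reached 167 CPM in OFF BCs, 46.9 CPM in Müller cells and 34.2 CPM in ON BCs. SOX6-AS-1 alone was at 145 CPM in OFF BCs and 19.9 CPM in Müller cells, a wider gap between these classes than that of SOX6 itself. LINC-SOX5-1 was at 13.9 CPM in OFF BCs and 0.697 CPM in ON BCs.

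SOX9, the group E factor of Müller glia and astrocytes, was highest in astrocytes, followed by Müller cells. Astrocytes held it at 50.5, 54.5, 49.8, 102 and 45.4 CPM in the infant retinas, 56.9, 22.9, 61.8 and 147 CPM in the mature retinas and 91.4, 41.5, 74.4, 78.5 and 136 CPM in the senile retinas. Müller cells held it at 38, 36.8, 38.1, 43.6 and 44.4 CPM in the infant retinas, 28.6, 27.7, 42.9, 42.1 and 54.3 CPM in the mature retinas and 25.2, 43.6, 44, 47 and 50.0 CPM in the senile retinas. Astrocytes spread widely, from 22.9 CPM in Mature 2 to 147 CPM in Mature 5, and overlapped with Müller cells. The means were 72.3 ± 35.8 CPM (SD, n = 14) and 40.4 ± 8.22 CPM (SD, n = 15). In the levels printed, which are not thinned, astrocytes were the lower in Mature 2 and Senile 2. After thinning, astrocytes were higher in 13 of 14 retinas by 0.81 ± 0.55 log2 units (adjusted p = 0.0025). The difference was 0.80 and 0.98 log2 units within the earlier and the later software version. RGCs were next at 5.91 ± 2.58 CPM (SD, n = 15), below Müller cells by 2.73 ± 0.51 log2 units in every retina (adjusted p = 0.00022). From RGCs to rods the means ran from 5.91 to 1.48 CPM with no neighbours past the threshold, though RGCs exceeded ACs by 0.64 ± 0.63 log2 units (adjusted p = 0.0039), cones by 0.75 ± 1.15 log2 units (adjusted p = 0.031) and rods by 1.25 ± 1.29 log2 units (adjusted p = 0.013). After thinning, 0.244 to 0.597% of the nuclei of these classes held a SOX9 UMI, against 7.12% of astrocytes and 4.24% of Müller cells.

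SOX8, the group E factor that overlaps with SOX9 in glia, was highest in the same 2 classes. Müller cells held it at 33.6, 18.4, 37, 16.1 and 23.7 CPM in the infant retinas, 15.7, 19, 25.3, 22 and 32.5 CPM in the mature retinas and 23.2, 30.5, 14.1, 20.1 and 20.7 CPM in the senile retinas. Astrocytes held it at 14.4, 4.19, 24.9, 9.28 and 15.1 CPM in the infant retinas, 12.2, 17.1, 17.3 and 14.7 CPM in the mature retinas and 0, 20.8, 31.9, 45.8 and 38.9 CPM in the senile retinas. Senile 1 had no SOX8 UMI in astrocytes, while the other senile retinas were at or above 20.8 CPM. Counts were few, with a SOX8 UMI in 49 of 1120 astrocytes over all retinas. The means were 23.5 ± 7.02 CPM (SD, n = 15) and 19 ± 12.7 CPM (SD, n = 14), a difference of 0.44 ± 1.52 log2 units (adjusted p = 0.55) that was within the spread. Of thinned nuclei, 2.59% of Müller cells and 1.31% of astrocytes held a SOX8 UMI, with an unadjusted p under 0.05 by the sign-flip test. Astrocytes exceeded BCs by 3.21 ± 1.53 log2 units (adjusted p = 0.0014), and BCs at 1.50 ± 1.16 CPM exceeded cones by 0.47 ± 0.65 log2 units (adjusted p = 0.022), a step at a level of about 1 CPM. The other classes were at 0.771 CPM or below, and 0 of 1121543 microglial UMIs were SOX8, which allows a level of up to 2.67 CPM by counting error alone. SOX8 was lower in OFF than in ON BCs, at 0.874 and 1.79 CPM (-0.51 ± 0.64 log2 units, adjusted p = 0.024), a call that was lost without Mature 2. As a share of thinned nuclei the direction turned, with a SOX8 UMI in 0.0635% of OFF (5 nuclei) and 0.0586% of ON BCs (8 nuclei).

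LINC-SOX9 features followed SOX9 to the glia, but with Müller cells first. The 15 features summed to 48.8 CPM in Müller cells and 45.7 CPM in astrocytes over all retinas pooled, and no other class was above 1.92 CPM. LINC-SOX9-15 was at 44.2 CPM in Müller cells and 29.2 CPM in astrocytes, LINC-SOX9-9 at 2.19 and 10.1 CPM. The single SOX9 antisense feature, at 11.5 and 11.1 CPM, was nearly level between them.

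Cones were divided by their opsin transcripts into S-cones (OPN1SW without OPN1LW, 395 nuclei) and L-cones (OPN1LW without OPN1SW, 11678 nuclei), compared in 13 retinas with at least 10 nuclei of each. SOX6 was at 56.3 CPM in S-cones and 59.8 CPM in L-cones (-0.22 ± 0.84 log2 units, adjusted p = 0.80). SOX5 was at 9.13 and 24.6 CPM (-1.55 ± 1.81 log2 units, adjusted p = 0.065), and SOX2 at 0.330 and 3.12 CPM (-0.85 ± 0.77 log2 units, adjusted p = 0.058). None of the 5 genes tested passed, against 5.12% of all features. On simulated data this test found 0% of 4-fold changes for this pair, so that a gene that did not pass may still differ. The calls of SOX2 and SOX5 turned on the setting. SOX2 passed with doublets kept (-0.92 log2 units) and with a pseudocount of 10 CPM (-0.26), and SOX5 passed under a stricter gate (-1.49). Both passed without Mature 1 (-0.93 and -1.78) and with class sums as sequenced (-1.78 and -2.21). On simulated data the sums as sequenced gave 458 false calls for this pair. As a share of thinned nuclei SOX2 had an unadjusted p under 0.05 by the sign-flip test. With 0 of 392 thinned S-cones holding a SOX2 UMI no retina could differ upward, so that this test could not decide. Each was the lower in S-cones in the settings in which it passed. Of thinned nuclei pooled over retinas, 2.30% of S-cones (9 nuclei) and 1.52% of L-cones held a SOX5 UMI, the opposite direction.

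The remaining SOX genes and genes known to work with SOX proteins were read in the same subclasses from lists that were chosen with earlier results of these data known. Of 9 further SOX genes, SOX13, also of group D, was the only one with a mean of 1 CPM in these comparisons. It was at 26.7 CPM in Müller cells, 24.2 CPM in astrocytes and 36.3 CPM in starburst ACs, all pooled over retinas, and at 3.10 CPM in the other ACs. Starburst ACs exceeded other ACs in SOX13 by 3.67 ± 0.77 log2 units in 15 of 15 retinas (adjusted p = 0.00045), so that SOX2, SOX5 and SOX13 were higher and SOX6 and SOX11 lower in these cells. SOX21, of the B2 group, gave 45 UMIs in all and stood at 10.4 CPM in astrocytes and at or below 0.107 CPM in the other 8 classes.

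Of 10 SOX partner factors tested between OFF and ON BCs, 3 were higher and 3 lower in OFF BCs, where 32.9% of all features passed, and among the higher were the nuclear factor I genes NFIA (1029 against 691 CPM, 0.59 log2 units, adjusted p = 0.00085) and NFIB (1197 against 718 CPM, 0.75 log2 units, adjusted p = 0.00055). Between starburst and other ACs, 1 of 9 was higher and 3 were lower in starburst ACs, a share near the 37.2% of all features, including NFIA (53.7 against 546 CPM, -3.46 log2 units, adjusted p = 0.00045) and the eye field factor gene PAX6 (415 against 664 CPM, -0.68 log2 units, adjusted p = 0.00045).

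Of the regulators of Müller glia and progenitors, 2 of 9 were higher and 5 lower in starburst than in other ACs, against 37.2% of all features in either direction. The Notch receptor gene NOTCH2 (291 against 9.84 CPM, 4.96 log2 units, adjusted p = 0.00045) was the furthest apart and LHX2 (4.32 against 25.7 CPM, -2.61 log2 units, adjusted p = 0.00045), a homeobox gene of progenitors and Müller glia, ran the other way. Between OFF and ON BCs 1 of 9 was higher and 2 were lower in OFF BCs, near the 32.9% of all features. Genes of young neurons that go with SOX11 were split, with 4 of 8 lower and 1 higher in starburst ACs, against the same 37.2%. The microtubule gene DCX (8.58 against 54.3 CPM, -2.64 log2 units, adjusted p = 0.00045) and the growth cone gene GAP43 (4.73 against 33.6 CPM, -2.82 log2 units, adjusted p = 0.00045) were among those lower. Of these genes, 1 was higher and 2 were lower in OFF BCs, again near the share of all features. Of 6 genes of glia and cartilage that go with group E, 1 was higher and 2 were lower in OFF than in ON BCs, against 32.9% of all features, and of the 6 tested in ACs 2 were higher and 3 lower in starburst ACs, against 37.2%. Between S- and L-cones, the lists of partner factors, regulators of Müller glia, genes that go with SOX11, genes that go with group E and SOX13 gave 0 calls upward and 1 downward, against 5.12% of all features. The 1 call was the Wnt effector gene TCF7L2 of the partner factors, at 3.97 CPM in S-cones and 19.2 CPM in L-cones (-2.62 ± 1.62 log2 units, adjusted p = 0.025).

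The genes whose level followed that of a SOX gene most closely were read over 133 profiles of a class in a retina and 10351 genes, other SOX genes left out. These profiles share libraries and differ in depth, and the correlations are a description. SOX2 went with MOXD1 (r = 0.86), ITGB4 (r = 0.83) and TCIM (r = 0.83). SOX9 went with SEMA5B (r = 0.84), FOLH1 (r = 0.84) and CTNNA3 (r = 0.83), of which SEMA5B encodes an axon guidance protein. SOX8 had the closest of all, the nuclear receptor gene NR2E1 (r = 0.91), COL5A1 (r = 0.90) and LINC-RPL36A-5 (r = 0.90). SOX6 went with RHOJ (r = 0.83), PRTFDC1 (r = 0.82) and CDH2 (r = 0.79), the first encoding a small GTPase and the last N-cadherin, and SOX5 with PTPRM (r = 0.84), GRIK4 (r = 0.84) and SPEG (r = 0.83), among them a receptor phosphatase and a kainate receptor subunit. SOX11 had no gene above 0.71, its nearest being LORF2li210, KCNH5 and RIMS1-AS-1.

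Levels of the SOX genes were then compared between the stages within each class, with edgeR's quasi-likelihood test on summed counts, the software version as a covariate and Benjamini-Hochberg adjustment over all features tested in the class. After the filter on low counts, 6 of the 10 genes could be tested in at least 1 of 7 classes, with 5 genes each in BCs, ACs and Müller cells, 4 each in cones, RGCs and astrocytes and 1 in HCs, which gives 28 tests per comparison. In rods and microglia none could be tested. None of the 28 passed an adjusted p of 0.05 in any comparison, where 1.29% of all tests passed between senile and infant retinas, 0.815% between mature and infant and 0.026% between senile and mature. At an unadjusted p under 0.05 the numbers were 4, 0 and 1 of 28, against 9.30, 10.3 and 8.94% of all tests, and DESeq2 called 0 in each comparison. The median log2 fold change of the 28 tests was -0.02, -0.06 and 0.07, beside 0.00, -0.01 and 0.03 over all tests. The procedure found 90.3% of simulated 4-fold and 30.5% of 2-fold changes in Müller cells between senile and infant retinas, so that smaller differences could have been missed.

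The lowest p among them belonged to SOX5 in cones, a class with little SOX5. Cones held it at 5.40, 3.55, 5.35, 14.1 and 30.5 CPM in the infant retinas, 19, 6.08, 42.3, 20.0 and 21.6 CPM in the mature retinas and 6.18, 10.9, 72.6, 93.4 and 38.9 CPM in the senile retinas. Senile 3 and Senile 4 were above every other retina, and the other 3 senile retinas lay within the range of the other stages. The senile minus infant difference was 1.33 ± 0.44 (SE) on the log2 scale with a 95% interval from 0.40 to 2.26 (adjusted p = 0.19 by edgeR). It passed with no filter on low counts (adjusted p = 6.3e-05) and was 0.26 with predicted doublets kept, 0.72 within the earlier and 1.55 within the later software version. Summed markers of ACs in cones, at 24.5 to 30.0 CPM in infant and 21.6 to 35.9 CPM in mature retinas, reached 138 CPM in Senile 3, and summed markers of BCs there reached 811 CPM against 85.7 to 335 CPM in infant and 108 to 684 CPM in mature retinas. In Senile 4 the AC and BC markers were at 37.5 and 455 CPM. Markers of astrocytes, the class with the highest SOX5, were at 9.24 to 35.8 CPM in the cones of infant and 13.3 to 26.7 CPM in those of mature retinas, at 112 CPM in Senile 3 and at 30.6 CPM in Senile 4. Müller markers were at 63.6 to 189.7 CPM in infant and 71 to 181 CPM in mature retinas, at 421 CPM in Senile 3 and at 191 CPM in Senile 4. The part of these 4 marker lists in the SOX5 values of cones was not tested.

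SOX6 in Müller cells had means of 522 ± 60.0, 595 ± 109.5 and 734 ± 91.4 CPM in the infant, mature and senile retinas (SD, n = 5 each), and the infant and senile values did not overlap. The senile minus infant difference of 0.37 ± 0.13 (SE) had a 95% interval from 0.10 to 0.64 and an adjusted p of 0.29 by edgeR. Summed cone markers in Müller cells had means of 152, 176 and 344 CPM in the infant, mature and senile retinas and summed astrocyte markers 627, 527 and 459.9 CPM, and their part in this difference was not tested. SOX11 in BCs had means of 23.7 ± 2.74, 18.3 ± 4.74 and 16.7 ± 4.80 CPM, a senile minus infant difference of -0.62 ± 0.23 (SE, adjusted p = 0.31 by edgeR). SOX2 in BCs, at the low level that it shared with cones and rods, was at 2.25 ± 1.40, 1.96 ± 0.634 and 4.48 ± 2.02 CPM, with a senile minus infant difference of 1.11 ± 0.45 and a senile minus mature difference of 0.95 ± 0.42 (SE, adjusted p = 0.37 and 0.45 by edgeR). The senile minus infant difference was 0.20 within the earlier and 2.04 within the later software version. Summed cone markers in BCs had means of 165, 195 and 438 CPM in the infant, mature and senile retinas, and their part in this difference was not tested. None of these 4 passed.

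For classes with a high level of a SOX gene, the intervals give a range for a stage difference. Each comes from the fold change and the F statistic of edgeR. For SOX2 in astrocytes and SOX9 in Müller cells, the senile minus infant p of edgeR (unadjusted, 0.46 and 0.83) was larger than that statistic gives. Those intervals are narrower than the test allows. Between senile and infant retinas the log2 fold change of SOX2 was -0.23 (95% interval -0.72 to 0.25) in Müller cells and -0.32 (95% interval -1.06 to 0.42) in astrocytes. That of SOX9 was -0.13 (95% interval -0.52 to 0.26) and 0.21 (95% interval -0.55 to 0.97), and that of SOX8 in Müller cells -0.30 (95% interval -0.93 to 0.32). SOX5 was at 0.12 (95% interval -0.18 to 0.43) in ACs, -0.24 (95% interval -0.53 to 0.06) in astrocytes and -0.03 (95% interval -0.29 to 0.22) in RGCs. SOX6 was at 0.15 (95% interval -0.05 to 0.34) in OFF BCs and SOX11 at -0.17 (95% interval -0.58 to 0.25) in RGCs. The intervals of SOX6 in Müller cells, given above, and of SOX11 in BCs, at -0.62 (95% interval -1.11 to -0.13), lay on one side of 0, and neither difference passed after adjustment. None of these intervals reached a 4-fold change in either direction. Among the genes of the lists, edgeR called 0 in any class and comparison, with an unadjusted p under 0.05 between senile and infant retinas in 4 of 53 tests of partner factors, 7 of 48 of genes that go with SOX11, 6 of 29 of genes that go with group E, 5 of 48 of the regulators of Müller glia and 2 of 5 of SOX13, against 9.30% of all tests. Between mature and infant retinas the counts in the same order were 2 of 53, 2 of 48, 6 of 29, 6 of 48 and 1 of 5, against 10.3% of all tests. Between senile and mature retinas they were 4 of 53, 7 of 48, 3 of 29, 4 of 48 and 0 of 5, against 8.94%. DESeq2 called 2, 1 and 1 for the genes that go with SOX11, the genes that go with group E and SOX13 between senile and infant retinas, 1 of the partner factors and 1 of the regulators of Müller glia between senile and mature retinas, and none of the lists between mature and infant retinas.

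**Figure D4:**
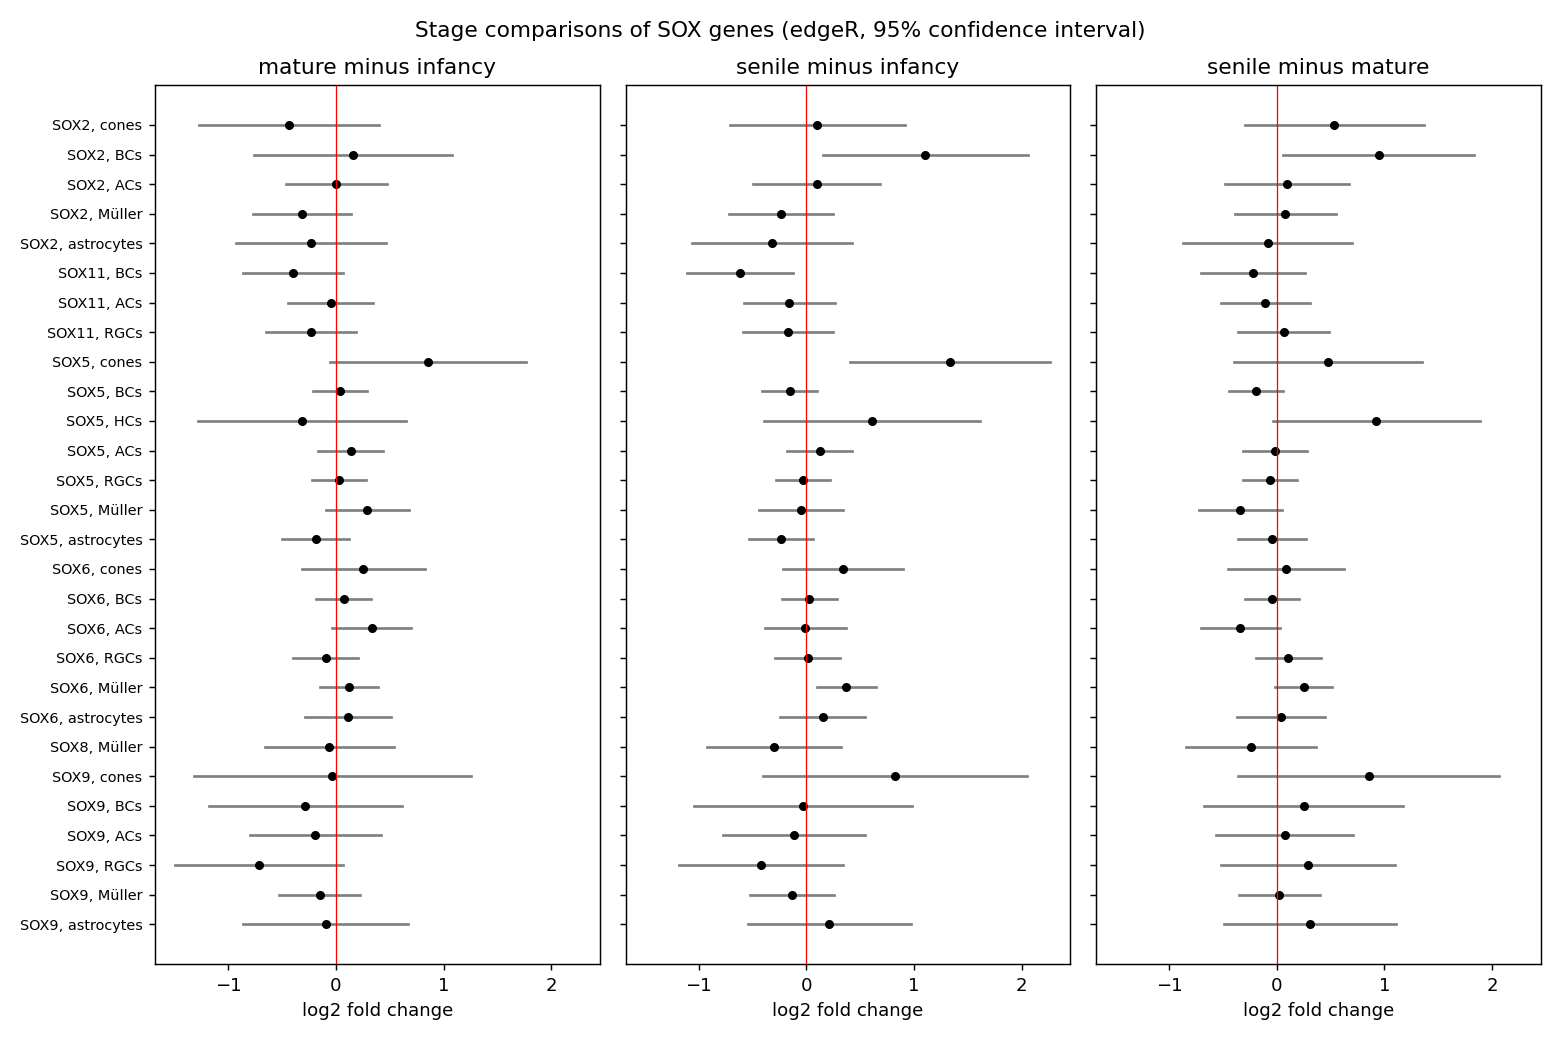
Log2 fold change between 2 stages (x axis) of each SOX gene in each class in which it could be tested (y axis), with the 95% confidence interval from edgeR. The intervals come from the fold change and the F statistic, and for some points are narrower than the test allows. The 3 panels are mature minus infancy, senile minus infancy and senile minus mature. None of the 28 points in any panel passed the adjusted threshold, and SOX5 in cones, at 1.33 between senile and infant retinas, lay furthest from 0.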

How the data were processed

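The deposited counts are whole UMI counts per gene and nucleus, 1 filtered matrix per retina, which the authors made with Cell Ranger (5.0.1 and 7.0.1 per the labels, 6.1.2 and 7.0.1 per the file headers) on the TS genome TS_3.0; the intron and strand settings are not given in the sources used here. The members and lists were chosen with earlier results of these data known. Each SOX gene was taken by its symbol, at its named feature. Nuclei with over 200 and under 6000 genes and under 5% mitochondrial UMIs were kept, and the highest scrublet scores, 8 per 1000 nuclei for every 1000 nuclei of the library, were removed as doublets. A nucleus joined a class when its Poisson likelihood over 74 marker genes exceeded that of the next class 100-fold with at least 2 own markers.

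UMIs were summed per retina and class, and the retina was the replicate; the study describes 15 donor animals, 5 to a stage, and the labels tie no retina to a donor. Classes were compared as log2(CPM + 1) by a 2-sided exact sign-flip permutation test, with Benjamini-Hochberg adjustment over features with a mean of at least 1 CPM. This departs from the plan in 3 ways. The deeper class was thinned to the total of the shallower within a retina (mean of 20 draws), since on simulated data the sums as sequenced gave 458 false calls for S- against L-cones and the thinned sums 0. The other pairs differed less, with 10 as sequenced and 9 thinned for OFF against ON BCs, 17 and 7 for starburst against other ACs, and 2 and 4 for astrocytes against Müller cells. Adjustment ran over all features in place of the SOX genes. The planned split of ACs by transmitter is not reported here. S- and L-cones were defined by single transcripts. Simulated 4-fold changes were found in 90% of features for OFF against ON BCs, 91% for starburst against other ACs, 53% for astrocytes against Müller cells and 0% for S- against L-cones. For simulated 2-fold changes the shares were 51, 47, 8 and 0% in the same order, so that differences of that size could have been missed.

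Stages were compared by edgeR 4.0.16 (quasi-likelihood, TMM, filterByExpr, stage plus software version), with DESeq2 1.42.0, other size factors, filters, gates and left-out retinas as alternatives. R 4.3.3, scanpy 1.11.5 and scipy 1.17.1 were used. A test of whether a stage effect differed between classes was planned for called genes and was not run, as none was called. Counting intervals and limits cover counting error only. Beside the SOX genes, the rule for named genes gave the 3 genes most correlated with each SOX gene that reached 10 CPM in a class, and list genes called where a SOX gene was called between stages, of which there were none. List genes named between subclasses and the leading genes of nuclei with 5 or more SOX6 UMIs were chosen after their values were seen.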

Additional observations from a re-analysis of the deposited data

Results flagged for a closer look

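In 9 of 114 groups of 4 or 5 retinas a SOX level stood apart from the rest of its stage and class by Dixon's criterion, which chance meets in about 1 group in 20. In rods, SOX5 was at 0 CPM against 24.8 to 71.9 CPM in the other 4 retinas of its stage for Mature 2. SOX6 in rods was at 0 CPM against 43.2 to 73.6 CPM for Senile 2. In RGCs, SOX5 was high in Mature 3, at 621 CPM against 382 to 429 CPM. In Müller cells, SOX9 was low in Senile 1, at 25.2 CPM against 43.6 to 50.0 CPM, and the same retina had SOX8 in astrocytes at 0 CPM against 20.8 to 45.8 CPM. Over all retinas, 49 of 1120 astrocytes held a SOX8 UMI. In astrocytes of Infancy 4, SOX9 was high, at 102 CPM against 45.4 to 54.5 CPM. OFF BCs of Senile 4 were low in SOX6, at 881 CPM against 1117 to 1180.1 CPM, though still above the ON BCs of every retina. ACs other than starburst cells were high in SOX6 in Infancy 4, at 51.1 CPM against 34.5 to 37.1 CPM, and low in SOX11 in Infancy 3, at 6.60 CPM against 13.1 to 16.4 CPM. Why these retinas stood apart was not tested.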

How the results depend on the processing

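No SOX gene was called between stages with DESeq2, RLE size factors, no pipeline term, doublets kept, a stricter gate, at least 30 nuclei, thinned class sums, within either software version or without any 1 retina. With no filter on low counts 1 was called between senile and infant retinas, SOX5 in cones, and 1 between mature and infant retinas, the same gene in cones. The replicate numbers of the labels are not said to pair the retinas. Over 131 pairs of same-numbered retinas within a class the correlation of their deviations ran from -0.61 to 0.81, above 0.1 in 95. Replicates 1 and 2 had the earlier and replicates 4 and 5 the later software version in every stage. The part of the version in these correlations was not tested. With the replicate block in the model 0 SOX genes were called in each of the 3 comparisons.

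Between classes and subclasses, calls changed in these cases, and the cause was not tested. In log2 units, a pseudocount of 10 CPM brought SOX2 between S- and L-cones to -0.26 and past the threshold, and doublets kept did so at -0.92. The stricter gate (a likelihood ratio of 1000 and 3 own markers) gave 0.22 for SOX5 in astrocytes over ACs and -0.79 for SOX2 in OFF over ON BCs, neither of them past the threshold, and -1.49 for SOX5 in S- over L-cones, past it. With class sums as sequenced, an alternative chosen after seeing the data, SOX2 and SOX5 in S-cones (-1.78 and -2.21) passed. For shares of nuclei thinned to equal depth, in percentage points, the sign-flip p was not adjusted over features. SOX8 in Müller cells over astrocytes (1.44) and SOX2 in S-cones (-0.29) had an unadjusted p under 0.05. OFF minus ON BCs reversed sign for SOX5 (10.2), with an unadjusted p under 0.05, and for SOX8 (0.0267).

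Within a software version the smallest exact p is 0.016 with 7 and 0.0078 with 8 retinas before adjustment, so that a lost call there says nothing of stability. Within the earlier version the values that no longer passed were SOX2 1.72 and SOX9 0.80 in astrocytes over Müller cells, SOX5 0.10, SOX6 in Müller cells over BCs 0.15, SOX2 -1.33, SOX6 2.71 and SOX8 -0.79 in OFF over ON BCs, and SOX2 4.21, SOX5 0.58, SOX6 -3.00 and SOX11 -1.96 in starburst over other ACs. Within the later version they were, in the same order, SOX2 2.04, SOX9 0.98 and SOX5 0.56, and SOX2 -0.43 and SOX8 -0.33 in OFF BCs, while SOX11 in OFF BCs (-0.51) passed. Of 42 tested pairs of neighbouring classes, 17 passed over all retinas, against 43.4% of all tests over the 36 pairs of classes. The number was 7 and 10 within the versions and 15 to 17 without 1 retina.

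Leaving out 1 retina ended the OFF minus ON call of SOX2 without Infancy 1 or Mature 1 (-1.02 to -0.70 over all retinas left out) and that of SOX8 without Mature 2 (-0.60 to -0.45). It brought SOX2 (-0.94 to -0.52) and SOX5 (-1.78 to -1.11) in S-cones past the threshold without Mature 1. LINC-FRMD8-1 left out of the totals or numbered copies summed into the gene changed no call in 23 results each. Few nuclei limited S-cones (395), microglia (658) and rods (875), and also astrocytes in single retinas (23 in Mature 5, 35 in Senile 3 and 38 in Senile 2). The classes cover 60.9% of nuclei, and a nucleus without enough marker UMIs had none.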

Other observations

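Nuclei outside the 9 classes also held SOX transcripts. The 43761 nuclei that no class claimed held SOX5 at 387 ± 120.0 CPM (SD, n = 15), SOX6 at 96.1 ± 30.3 CPM (SD, n = 15), SOX11 at 12.3 ± 2.07 CPM (SD, n = 15), SOX9 at 5.11 ± 2.00 CPM (SD, n = 15) and SOX2 at 3.11 ± 2.48 CPM (SD, n = 15). Their SOX5 lay between those of Müller cells and microglia, and their SOX6 between those of RGCs and cones. The 77 nuclei gated by pericyte markers held SOX6 at 174 CPM pooled over retinas, and with these few nuclei no test was made.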
